A study of Arabidopsis thaliana with 6 samples.

Results

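HTR12, PRL and AUR1 are 3 genes that plant cells use to divide, and they were followed here in whole germinating seeds of Arabidopsis thaliana. HTR12 (AT1G01370) encodes CENH3, the centromeric histone H3 that marks where kinetochores assemble. PRL (PROLIFERA, AT4G02060) encodes MCM7, a subunit of the helicase that is loaded onto replication origins before DNA synthesis and then unwinds the DNA. AUR1 (AT4G32830) encodes an Aurora kinase, which acts on the spindle and the division plane in mitosis. They were chosen by name, as the probe sets that the platform annotation gives to these genes. Each gene had 1 probe set, so the members were 3 of the 13286 loci with a probe set naming them alone, among 22746 probe sets that are not controls, and all 3 passed the filter on dim probe sets, which 13648 passed.

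The mutant arrays (3) came from plants in which T-DNA interrupts AT2G22780 and AT5G09660, the 2 genes of peroxisomal malate dehydrogenase. The wild-type arrays (3) came from a segregant that descends from a plant heterozygous for a T-DNA, with Col-0 given as their source. Seeds of both genotypes were stratified on agar for 2 days at 4 °C, then kept at 22 °C under continuous light with 1% sucrose and taken at growth stage 0.7. RNA of each sample was hybridised to 1 ATH1 array, a 1-colour array whose short probes are combined into 1 signal per probe set. The labels do not say whether replicates are separate plants or seed batches, so p-values rest on a spread that may be technical, and 3 arrays per group limit the precision. The disrupted genes have 0 probe sets named for them in the annotation used here, so the genotypes were not checked against their own transcripts.

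Cells of the mature embryo rest with unreplicated DNA, and most of the elongation that pushes the root out of the seed needs no cell division. Division resumes around that time, first in the root tip. Licensing and replication genes such as PRL belong to the entry into DNA synthesis, while mitotic kinases such as AUR1 are transcribed towards mitosis. HTR12 is needed in every division to restock the centromeres with their histone. The comparison asked whether transcripts of dividing cells differ between the genotypes at this stage, as a sign of when the cell cycle starts. Only this stage was sampled, so the values cannot date that start. In whole seeds, fewer dividing cells and less RNA per dividing cell cannot be told apart.

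None of the 3 genes passed limma's moderated test between the genotypes, and each estimated change was small. The mutant stood at 1.15 times the wild type for HTR12, 1.03 times for PRL and 0.958 times for AUR1. The 95% intervals of all 3 lay within a 1.5-fold change in either direction. Of all probe sets tested, 3.78% were called at an adjusted p under 0.05 (1.96% higher and 1.82% lower in the mutant), so 0 called members of 3 is no result about these genes.

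HTR12, the centromere gene, had signals of 42.3, 36.7 and 44.0 in the mutant arrays, against 33.4, 35.2 and 34.3 in the wild-type arrays. At the deposited scaling every mutant array lay above every wild-type array, with mutant replicate 2 only slightly above wild-type replicate 2. The groups overlapped after quantile normalization and with each array centred on its median. The mean signal was 41.0 ± 3.86 in the mutant and 34.3 ± 0.901 in the wild type (SD, n = 3 each). The log2 fold change was 0.20 (SE 0.15, 95% interval −0.13 to 0.53, limma adjusted p = 0.551), on the log2(signal + 10) scale used for all fold changes here. The exact two-sided permutation p was 0.1, the smallest that 3 arrays against 3 allow. Such separation without overlap was common: 21.9% of all probe sets tested showed it, and 13.1% showed it with the mutant higher.

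The spread of HTR12 between replicates was low for this array set. Its SD within groups, on the log2 scale, was 0.0814, at the percentile 8.35 of all probe sets tested. The SE above is larger than that SD implies, because limma moves each variance towards the trend for probe sets of similar signal. HTR12 was dim among the probe sets tested, at the percentile 17.5 of them by mean log2 value. Against the array medians of all probe sets that are not controls, HTR12 lay between −0.087 and 0.18 on the log2 scale. Without the trend the SE was 0.12 and the adjusted p was 0.435. Without a pseudocount the change was 0.25 and its interval reached 0.67, past a 1.5-fold increase. The change was 0.11 after quantile normalization (adjusted p = 0.804) and also after median centring (adjusted p = 0.788).

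PRL, the replication gene, had signals of 166, 162 and 138 in the mutant, against 125, 181 and 149 in the wild type. The 2 extreme values were both wild-type, replicate 2 the highest and replicate 1 the lowest of the 6 arrays, so the groups overlapped fully. Means were 155 ± 15.4 in the mutant and 152 ± 27.9 in the wild type (SD, n = 3 each). The log2 fold change was 0.043 (SE 0.14, 95% interval −0.26 to 0.34, limma adjusted p = 0.917, exact permutation p = 0.9). The sign of this value depended on the scaling and on single arrays. It was −0.0011 after quantile normalization, −0.046 with each array centred on its median, −0.0056 without mutant replicate 1 and −0.080 without wild-type replicate 1, and it was 0.17 without wild-type replicate 2.

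AUR1, the mitotic gene, had signals of 170, 196 and 182 in the mutant, against 192, 194 and 187 in the wild type. At the deposited scaling the wild-type arrays lay close together and inside the range of the mutant arrays. After median centring all mutant arrays lay below all wild-type arrays. Under that centring 22.1% of all probe sets tested had groups without overlap, in either direction. Means were 182 ± 13.2 in the mutant and 191 ± 3.75 in the wild type (SD, n = 3 each). The log2 fold change was −0.063 (SE 0.12, 95% interval −0.31 to 0.18, limma adjusted p = 0.833, exact permutation p = 0.4). It was negative in all 15 alternative settings, between −0.15 after median centring and −0.014 without mutant replicate 1.

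**Figure D1:**
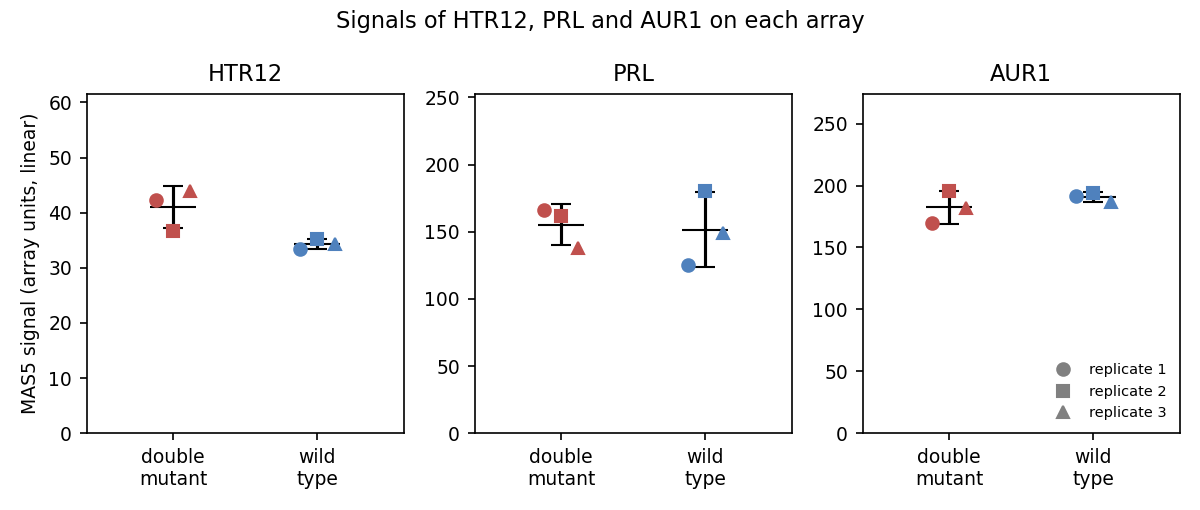
MAS5 signal (linear, vertical axis from 0) of HTR12, PRL and AUR1 on each array, with the mean and SD of the 3 arrays per genotype in black and a marker shape for each replicate. At this scaling HTR12 signals do not overlap between the genotypes (36.7 to 44.0 in the mutant, 33.4 to 35.2 in the wild type). Those of PRL and AUR1 overlap. Median centring makes HTR12 overlap and separates AUR1. Of all probe sets tested, 21.9% are without overlap at this scaling and 22.1% after median centring.

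The precision of the arrays sets how small a change could have been called. With the SEs above and the largest unadjusted p among the called probe sets, 0.00189, a call would have needed a log2 change of 0.57 for HTR12, 0.53 for PRL and 0.43 for AUR1. These correspond to folds of 1.49, 1.44 and 1.35. Smaller changes could not have been called with 3 arrays per group, and the values do not show that the genotypes were alike.

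Over the 6 arrays the 3 genes had different patterns. Pearson correlations of their log2 values were 0.082 for HTR12 with PRL, −0.73 for HTR12 with AUR1 and −0.048 for PRL with AUR1, given as a description over 6 arrays that share a scaling. The change of HTR12 exceeded that of AUR1 by 0.26 on the log2 scale. The difference between these genes within an array did not overlap between the genotypes, but only narrowly. Its lowest mutant value was −2.142 and its highest wild-type value −2.149. The exact permutation p of this difference was 0.1, which became 0.3 when adjusted over the 3 pairs compared. HTR12 exceeded PRL by 0.16 and PRL exceeded AUR1 by 0.11 (exact permutation p = 0.5 and 0.6, adjusted p = 0.6 for both).

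**Figure D2:**
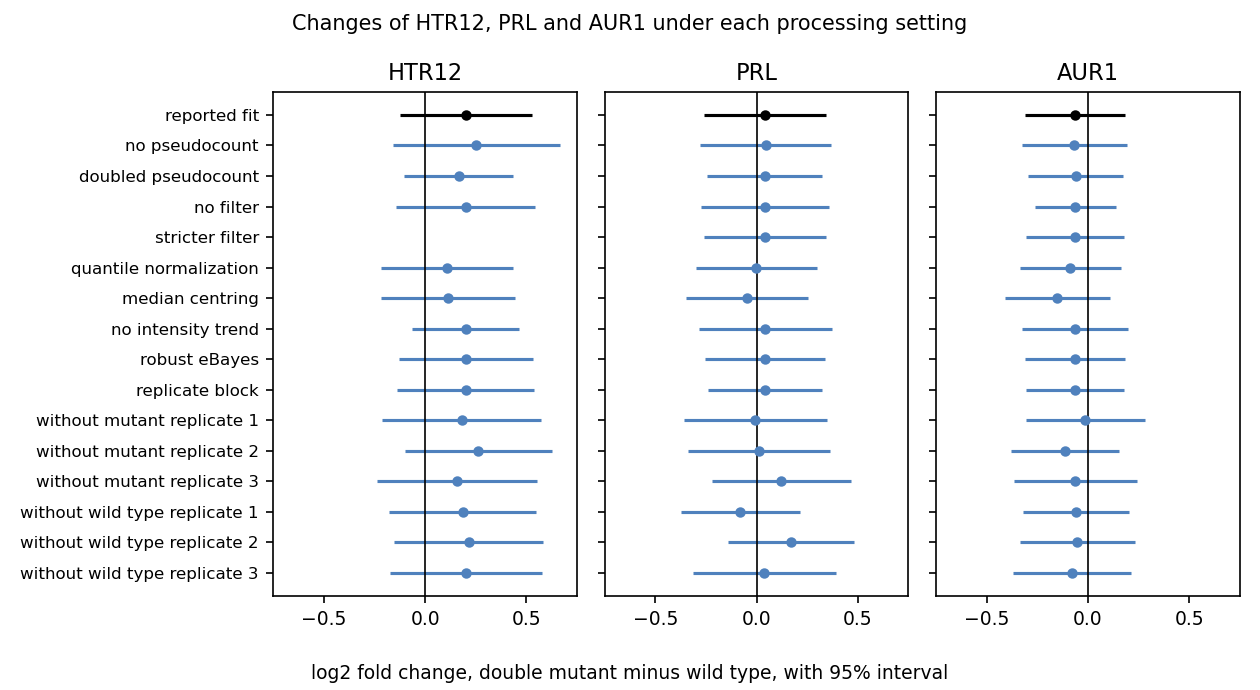
Log2 fold change (double mutant minus wild type, horizontal axis) of HTR12, PRL and AUR1 with its 95% interval, in the reported fit (black) and under each other setting (blue). Every interval spans 0, HTR12 values stay above 0 (0.11 to 0.26), AUR1 values stay below it, and PRL values lie on both sides. HTR12 has no value under the stricter filter, which its probe set did not pass.

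Other cell cycle genes were followed with 7 lists of 154 loci, of which 23 had a probe set naming them alone and 21 were tested. None was called in limma in either direction, 2 (9.52%) had an unadjusted p under 0.05 against 17.3% of all probe sets tested, and 4 (19.0%) had groups without overlap against 21.9%. Of the 21, 14 had a positive change, 66.7% against 59.4% of all probe sets tested. Their median log2 fold change was 0.039 and that of all probe sets tested 0.048. These signs followed the scaling: after quantile normalization 9 of the 21 were positive (42.9% against 51.4% of all) with a median of −0.0091, and after median centring 8 (38.1% against 42.1% of all) with a median of −0.049. Groups without overlap then numbered 2 of the 21 (9.52%) under either scaling. Of all probe sets tested, 20.8% had none after quantile normalization and 22.1% after median centring. The 95% interval lay within a 2-fold change for all 21 and within a 1.5-fold change for 18 of them (85.7%), against 97.5% and 73.5% of all probe sets tested. The lists were measured only in part, and 0 of the 22 regulators of the entry into DNA synthesis (D-type cyclins, E2F factors and their partners) had a probe set named for them alone here.

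Around PRL, the origin licensing list of 23 genes had 2 tested members. PSF2, a subunit of the GINS complex that joins the MCM helicase at origins, had signals of 49.0, 58.2 and 58.2 in the mutant, against 45.4, 54.2 and 43.1 in the wild type. Its groups overlapped, and its log2 fold change was 0.18 (SE 0.15, limma adjusted p = 0.582). A further locus of this list, AT1G07270, had signals of 12.7 to 24.0 in the mutant, against 18.9 to 26.3 in the wild type and was too dim to be tested.

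The DNA synthesis list had 3 tested members of 13, with changes from 0.051 to 0.41. ICU2, the catalytic subunit of DNA polymerase alpha, had signals of 59.1, 65.3 and 44.9 in the mutant, against 28.1, 48.8 and 44.3 in the wild type. Mutant replicate 3 lay between wild-type values, and the change of 0.41 (SE 0.18, 95% interval 0.018 to 0.80) had an unadjusted p of 0.0413 and a limma adjusted p = 0.265. It was 0.22 without wild-type replicate 1, the lowest array. AT5G26680 had 52.1, 60.8 and 55.0 in the mutant, against 48.8, 44.9 and 40.1 in the wild type. Its groups did not overlap at the deposited scaling but did under both others, with a change of 0.27 (SE 0.14, limma adjusted p = 0.353). TOPII, which encodes topoisomerase II, had a change of 0.051 (SE 0.14, limma adjusted p = 0.900), which was −0.0091 after quantile normalization, −0.038 after median centring and −0.036 without wild-type replicate 1.

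Histone genes of the type made during replication were measured through 4 genes of histone H2B, out of 26 histone loci listed. Copies of this family are near-identical in their coding parts, so their probe sets may share signal, and they are given as uncertain. HTB1 had signals of 483, 482 and 517 in the mutant, against 435, 481 and 427 in the wild type, without overlap but by a margin of about 1 unit of signal at replicate 2 of both genotypes, and with overlap after median centring. Its change was 0.14 (SE 0.11, limma adjusted p = 0.539). HTB2 had 235, 204 and 184 in the mutant, against 131, 269 and 142 in the wild type, so wild-type replicate 2 was the highest of all 6 arrays. Its change was 0.26 (SE 0.20, limma adjusted p = 0.559) with all arrays and 0.075 without wild-type replicate 1. Without wild-type replicate 2 it was 0.56 (95% interval 0.26 to 0.87, limma adjusted p = 0.0528), just short of a call. HTB4 and HTB11 had changes of −0.029 and −0.069 (limma adjusted p = 0.925 and 0.830), and HTB4 was at 0.036 after quantile normalization.

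The centromere and kinetochore list, to which HTR12 belongs, had 6 tested members of 14, and their signs were mixed. BUBR1, a protein of the spindle checkpoint, had signals of 18.1, 35.6 and 17.9 in the mutant, against 31.8, 33.8 and 37.4 in the wild type. Mutant replicates 1 and 3 were low and replicate 2 lay among the wild-type arrays. Its change was −0.43 (SE 0.20, 95% interval −0.86 to 0.0068), the largest of the 21 in size, with an unadjusted p of 0.0533 and a limma adjusted p = 0.299. It was −0.66 without mutant replicate 2, −0.60 without a pseudocount and −0.31 without mutant replicate 1 or 3. BUB3.1, which also acts in the spindle checkpoint, had a change of 0.21 (SE 0.13, limma adjusted p = 0.466). The loci AT4G37210, AT3G54630 and AT3G48210 had changes of 0.19, 0.037 and −0.15 (limma adjusted p = 0.506, 0.940 and 0.683), and AT3G54630 was at −0.055 after quantile normalization and −0.052 after median centring.

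The mitosis and cytokinesis list, to which AUR1 belongs, had 5 tested members of 43, all 3 Aurora kinases among them. AUR2, the closest relative of AUR1, had signals of 166, 142 and 168 in the mutant, against 197, 186 and 191 in the wild type. At the deposited scaling all its mutant arrays lay below its wild-type arrays, a separation seen in this direction for 8.80% of all probe sets tested. AUR2 groups also stayed apart after quantile normalization and after median centring. Under these 2 scalings 20.8% and 22.1% of all probe sets tested had groups without overlap, in either direction. The change of AUR2 was −0.26 (SE 0.12, 95% interval −0.51 to −0.0038), with an unadjusted p of 0.0470 and a limma adjusted p = 0.280. It ranged over −0.35 to −0.19 in the alternatives. AUR3, which localises to centromeres in mitosis, had a change of 0.026 (SE 0.15, limma adjusted p = 0.954), and it was at −0.063 both after quantile normalization and after median centring.

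KINESIN-12B, a motor protein of the cell division plane, had signals of 30.1 to 43.0 in the mutant, against 26.0 to 45.7 in the wild type, with a change of 0.024 (SE 0.19, limma adjusted p = 0.966). ATSMC2, a condensin subunit gene, had a change of 0.039 (SE 0.19, limma adjusted p = 0.943). Both signs turned negative under quantile normalization and under median centring. WYR, the plant INCENP-like partner of Aurora kinases, had signals of 15.5 to 29.1 in the mutant, against 10.9 to 25.2 in the wild type and was too dim to be tested. The list of inhibitors of cyclin-dependent kinases and endoreduplication genes had 1 tested member of 13. This was SIM, an inhibitor that moves cells from division to endoreduplication, which had signals of 237, 242 and 198 in the mutant, against 288, 195 and 257 in the wild type, with a change of −0.11 (SE 0.14, limma adjusted p = 0.749).

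**Figure D3:**
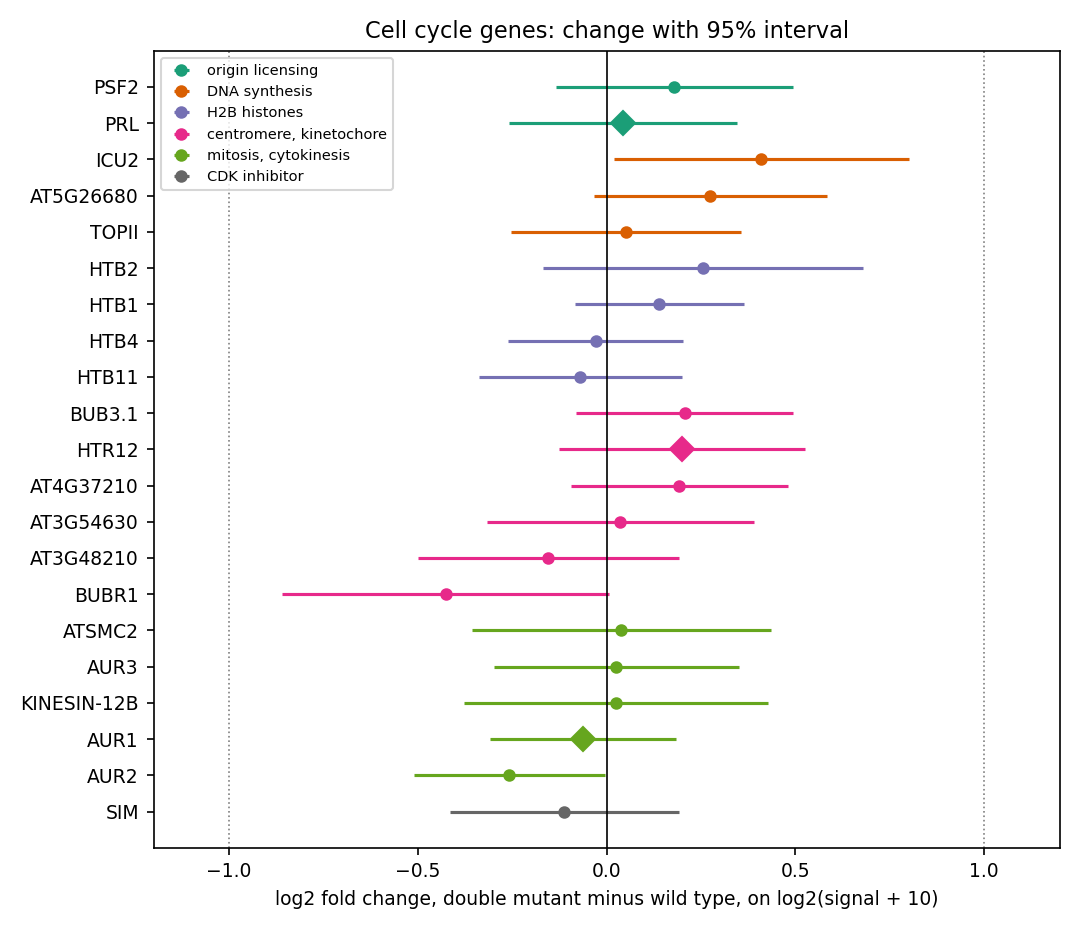
Log2 fold change (double mutant minus wild type, horizontal axis) with 95% interval of the 21 tested cell cycle genes, coloured by list, with HTR12, PRL and AUR1 as diamonds and dotted lines at a 2-fold change. Changes range from −0.43 for BUBR1 to 0.41 for ICU2, and every interval stays inside the dotted lines.

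The genes whose pattern over the 6 arrays was most like that of each member were sought among 7306 other tested probe sets naming 1 gene. For HTR12 they were AT4G38350, AT5G04270 and AT3G20650, with Pearson r of 0.998, 0.988 and 0.984 and log2 fold changes of 0.54, 0.29 and 0.24, none of them called (limma adjusted p = 0.0647, 0.308 and 0.354). For PRL they were UBP16, which encodes a ubiquitin-specific protease, AT4G18300 and AT1G27000 (r of 0.991, 0.985 and 0.977). For AUR1 they were AT1G28600, AT2G31050 and AT5G07590 (r of 0.994, 0.984 and 0.979). With 6 arrays high values arise readily: 29, 12 and 10 probe sets had an r over 0.95 with HTR12, PRL and AUR1. None of the 9 belongs to the cell cycle lists, but only 21 genes of those lists were tested, so this is no result about the members.

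Markers of seed stage differed between the same arrays. Of 11 late embryo markers, 5 were tested. Of these limma called 4 higher in the mutant and 0 lower, against 1.96% and 1.82% of all probe sets tested. The fifth, OLEO3, an oleosin gene, had signals of 44.0, 49.0 and 38.9 in the mutant, against 56.3, 53.7 and 58.5 in the wild type, all mutant arrays being lower, with a change of −0.30 (SE 0.14, limma adjusted p = 0.309). The summed signal of the 5 was 623 to 734 in the mutant, against 103.5 to 131.5 in the wild type, where M17 lay between 0.220 and 6.09. M17, PAP85 and AtLEA4-1 had wild-type means of 3.65, 4.62 and 4.97 on the log2 scale, below the filter floor of 5.02. These markers passed the filter only through the mutant arrays. All 4 markers of greening seedlings were lower, with sums of 4787 to 5328 in the mutant, against 7125 to 7823 in the wild type. The marker lists were chosen with earlier results of these data known, so their counts are a description and no test. The summed signal of the dividing-cell genes HTR12, PRL and AUR1 was 364 to 395 in the mutant, against 350 to 410 in the wild type, and the other 3 dividing-cell markers listed, among them the B-type cyclin CYCB1;1, had no probe set named for them alone here. Neither ICL and SDP1, genes of oil breakdown, nor the root hair genes EXPA7 and EXPA18 were called, and 0 endosperm markers were measured. The part of the seed stage in the values of HTR12, PRL and AUR1 was not tested.

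**Figure D4:**
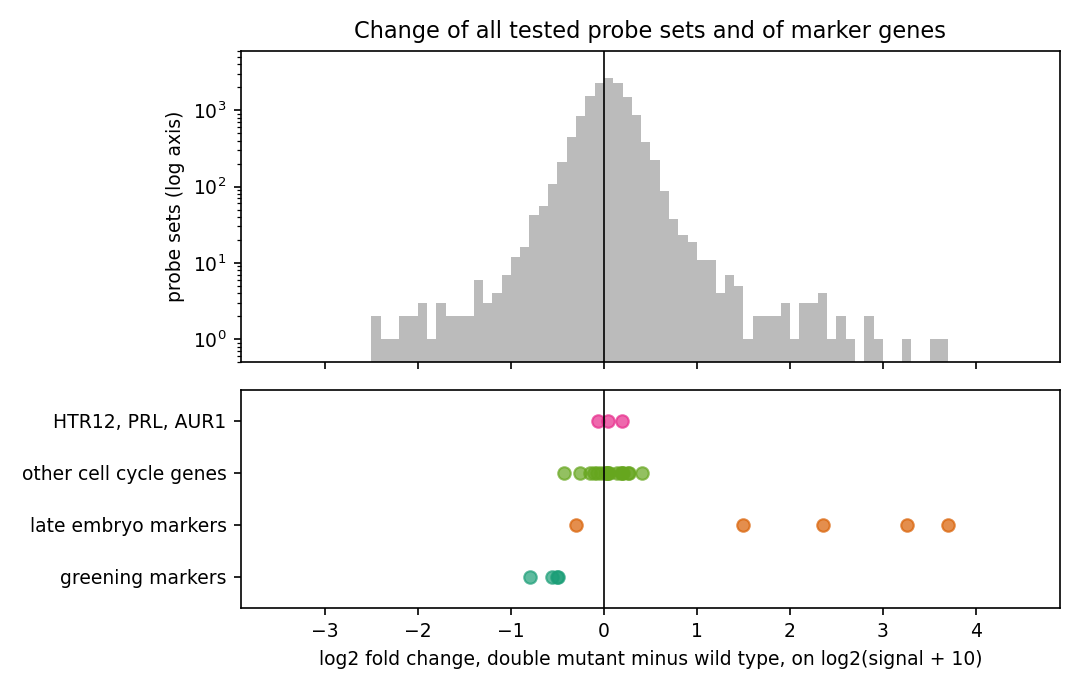
Top, number of probe sets (log axis) by log2 fold change (double mutant minus wild type) for all 13648 tested; bottom, the changes of HTR12, PRL and AUR1, of the other 18 cell cycle genes, and of late embryo and greening markers, 1 point per gene. The cell cycle genes lie between −0.43 and 0.41 under the bulk of the distribution, while 4 late embryo markers lie at 1.49 or above, the fifth (OLEO3) at −0.30 and the greening markers at −0.49 or below.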

How the data were processed

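Whole-seed RNA was measured on 6 arrays, grouped and numbered by the labels. The deposited intensities are linear MAS5 signals, 1 per probe set, per the submitters' processing notes (no MAS5 version stated there). MAS5 scales each array by 1 factor: the trimmed mean was 100.0 on each, and medians were 34.1 to 39.0. It also subtracts mismatch probes, so dim signals are noisy.

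Signals were transformed as log2(signal + 10). The 64 control probe sets were dropped, and those with a mean log2 value below the 40th percentile (5.02) were not tested. limma 3.58.1 (R 4.3.3) fitted mutant minus wild type with an intensity trend in eBayes, two-sided, with Benjamini-Hochberg adjustment over all 13648 and calls at 0.05. The fit was tested on simulated data.

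Of 13513 probe sets naming 1 gene, 13436 matched a locus of TAIR10.1; 503 name several genes and 8730 are unnamed here. A locus was represented by its brightest probe set. Coordinates are left out, because the values state no build. The members and lists were chosen with earlier results of these data known. Besides the 3 members, the rule names every tested list member and, per member, the 3 probe sets most correlated with it. CYCB1;1 and the untested AT1G07270 and WYR were added outside it.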

Additional observations from a re-analysis of the deposited data

How the results depend on the processing

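The calls of HTR12, PRL and AUR1 did not change in any alternative run, all of which were planned. Of the cell cycle genes with a value, 0 were called in any of 16 alternatives. Their lowest limma adjusted p was 0.0528, for HTB2 without wild-type replicate 2. Under the stricter filter, at the 60th percentile, 11 of the 21 had a value and 10, HTR12 among them, were too dim. Lowest and highest changes with 1 array left out were 0.16 and 0.26 for HTR12, −0.080 and 0.17 for PRL, and −0.11 and −0.014 for AUR1. PRL was −0.0011 under quantile normalization and −0.046 under median centring. For the other 18 genes 237 of 261 values kept their direction and 24 turned it. Quantile normalization gave −0.0091 for TOPII, −0.055 for AT3G54630, −0.063 for AUR3, −0.077 for KINESIN-12B, −0.045 for ATSMC2 and 0.036 for HTB4. Median centring gave −0.038 for TOPII, −0.052 for AT3G54630, −0.063 for AUR3, −0.064 for KINESIN-12B and −0.049 for ATSMC2. With 1 array left out, the range was −0.036 to 0.19 for TOPII, −0.062 to 0.15 for AT3G54630, −0.049 to 0.081 for AUR3, −0.13 to 0.19 for KINESIN-12B, −0.077 to 0.12 for ATSMC2, −0.26 to 0.0037 for SIM, −0.11 to 0.056 for HTB4 and −0.19 to 0.051 for HTB11. The cause was not tested.

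Over all probe sets, 516 were called, 228 without the filter, 325 without the intensity trend and 274 to 702 with 1 array left out. With median centring 653 were called, 27.4% of them higher in the mutant, against 51.7% at the deposited scaling. Same-numbered arrays had deviations correlated at 0.037, 0.17 and 0.13, and each array correlated best with its own number, a hint from the data only. With the replicate block 686 were called, and the changes were again 0.20, 0.043 and −0.063, with limma adjusted p = 0.529 for HTR12, 0.898 for PRL and 0.809 for AUR1. No detection calls were used, so signal over background was not judged for dim probe sets such as those of HTR12 and ATSMC2.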

Other observations

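Of the 9 tested genes on the origin licensing, DNA synthesis and histone lists, 7 had their highest wild-type signal in replicate 2, 2 in replicate 1 and 0 in replicate 3. Over all probe sets tested, 34.8% were highest in wild-type replicate 2. Among the mutant arrays the 9 genes were spread as 3, 3 and 3. Of the 11 tested genes on the centromere and mitosis lists, 5 were highest in wild-type replicate 2, 4 in replicate 1 and 2 in replicate 3. PRL, at 181 in wild-type replicate 2 against 125 and 149 in the others, and HTB2, at 269 against 131 and 142, were among the 7. This grouping was made after the values were seen. The 9 genes share arrays, and no test was run.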
